A study of Sus scrofa with 32 samples.

Results

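The cytosolic ribosomal protein genes are described here in fetal pig liver, as measured on a 1-colour oligonucleotide microarray. Members were the probes whose transcript accession maps to a pig gene symbol of the RPL or RPS series (RPLP0 and RPSA included, the RPS6K kinases left out), with a signal well above background on at least 3 of 4 arrays of some group. The probe with the highest mean stood for each gene. The rule found 27 genes, of 84 such symbols in the pig gene table used for naming, among 28673 features tested, of which 1596 carried a gene symbol. All 27 member probes were well above background on all 32 arrays, so the filter on dim probes removed none of them and did not select members by a difference between groups. The large subunit contributed 15 members and the small subunit 12.

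Liver was sampled from fetuses at gestational day 37, 50, 70 and 110, as 8 groups of 4 samples: control fetuses and runts (growth-retarded fetuses) at each day. All gilts, those that carried the controls included, had 1 uterine horn and 1 ovary removed before artificial insemination, so that the uterus was overcrowded. The model is therefore growth retardation by crowding, with both kinds of fetus from crowded litters. Per the labels, the samples came from littermate pairs of distinct gilts, 4 at each day, so the samples of a group are separate animals. Albumin, alpha-fetoprotein, transthyretin and apolipoprotein A1, which define hepatocytes, were well above background on all 32 arrays. Whole tissue was used, and a change in the number of cells of a type cannot be told apart from a change in RNA per cell.

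The cytosolic ribosome reads messenger RNA in its small subunit and joins amino acids in its large subunit. Its proteins are needed in about equal numbers, and their messenger RNAs share a pyrimidine tract at the start that lets growth signals through mTOR set their translation as a group. Some of them act outside the ribosome: RPL5, RPL11 and RPL23 can bind MDM2 when assembly is disturbed and so stabilise p53. The fetal liver is at first a blood-forming organ, and loss of 1 copy of several of these genes in humans causes Diamond-Blackfan anaemia, a failure of red cell formation.

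Signals are given as log2 units above the 75th percentile of the same array, so a value of 8 is a signal 8 doublings above that percentile. Levels of different genes are not compared, because each probe has its own brightness. Differences were tested with limma over all 28673 features, with Benjamini-Hochberg adjustment, and a gene was called at an adjusted p under 0.05. The arrays had 75th percentile intensities of 177 to 460, between 51.3% and 69.4% of spots were well above background, and none of the spots was saturated. Precision was limited by the number of arrays. Days lay at fixed slide positions (position 1 to 4 for days 37 to 110) apart from 1 runt array of day 50, so day and position cannot be told apart.

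Few ribosomal protein genes were called over a span of gestation in which many features of the array were. Between day 37 and day 110 in control liver, 3 of the 27 members were called, 2 higher and 1 lower, against 53.1% of all features (27.1% higher, 26.0% lower). In runt liver 1 member was called, and it was lower, against 50.0% of all features. None of the 27 changed by 2-fold or more among the calls in either kind of fetus, whereas 29.3% of all features in control liver and 27.1% in runt liver did. The 95% interval of the control difference lay within 2-fold for 24 of 27 members and within 1.5-fold for 14. The spread of the 4 control means, highest minus lowest, had a median of 0.30 over the members (range 0.06 to 0.84) against 0.87 over all features, and in runts 0.35 against 0.84. Within groups, the SD of the members had a median of 0.26, against 0.34 for all features. All member values lay above the percentile used for scaling, whereas all features include dimmer probes. The members and all features were not matched for brightness in these comparisons. Whether equally bright features changed as little was not tested.

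The median control difference from day 37 to day 110 was 0.10 on the log2 scale, with 19 of 27 members above 0, and -0.02 without day 110 control replicate 1, against -0.02 over all features. The runt median was 0.06, with 16 of 27 above 0, against 0.04 over all features, and it turned to -0.02 (13 above 0) after background correction with quantile normalization. The number of members called depended on the normalization: it was 7 in control liver after background correction with quantile normalization, 5 higher and 2 lower (50.5% of all features), and 5 in the authors' deposited table, 4 higher and 1 lower (52.8%). Of the 7, RPS21 was probably called by another of its probes. In runts the same settings gave 4 (48.0%) and 3 (49.8%).

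**Figure D1:**
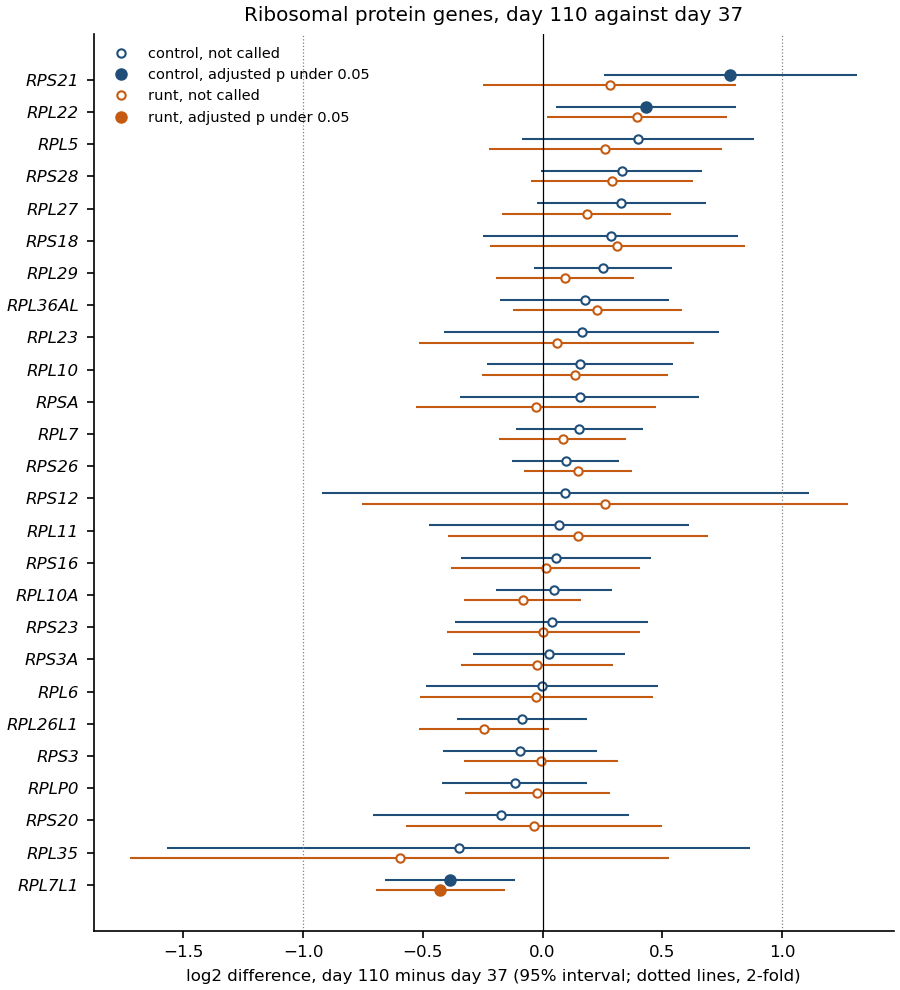
Log2 difference between day 110 and day 37 for 26 of the 27 members with its 95% interval, in control liver (blue) and runt liver (orange), 4 arrays a group; filled points passed an adjusted p of 0.05 in limma. The control points range from -0.39 for RPL7L1 to 0.78 for RPS21, and no called point lies beyond the dotted 2-fold lines.

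RPL22, an RNA-binding protein of the large subunit, rose in control liver. Its level at day 37 was 7.60, 7.57, 7.50 and 7.15 in the 4 control livers, and at day 110 it was 8.14, 7.88, 7.75 and 7.78. Every day 110 control lay above every day 37 control, a pattern shared by 23.2% of all features. The difference was 0.43 (SE 0.18, 1.35-fold, limma adjusted p = 0.0493). In runt liver the difference was 0.40 (SE 0.18, adjusted p = 0.0744). The call was close to the threshold: without 1 control array it ranged up to an adjusted p of 0.162, and it was lost without replicate 2, 3 or 4 of day 37 and without any array of day 110. It was kept in the authors' deposited table (0.38, adjusted p = 0.00292).

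RPS21, a small-subunit protein needed for maturation of the ribosomal RNA of that subunit, was called higher in control liver at day 110, and 1 array decided the call. Its level at day 37 was 6.91, 8.47, 8.36 and 8.73 in controls and 8.90, 8.87, 8.55 and 8.65 in runts. At day 110 it was 9.26, 8.67, 8.93 and 8.74 in controls and 9.18, 9.17, 8.59 and 9.16 in runts. The day 37 control replicate 1 lay far below every other array, and the other 3 day 37 controls overlapped the day 110 controls. With it the difference was 0.78 (SE 0.26, limma adjusted p = 0.0124), and without it 0.38 (adjusted p = 0.0996). After quantile normalization, where the brightest probe was picked anew, the RPS21 value was 0.27 (SE 0.10, limma adjusted p = 0.0338). The reported probe had a larger SE in that setting, 0.12, even for the runt difference averaged over 4 days. The 0.27 thus probably comes from another RPS21 probe and does not bear on the low array. Over the mean of its probes the difference was 0.44 (adjusted p = 0.0956). The other 2 RPS21 probes gave 0.29 and 0.24 and were not called.

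RPL7L1, a relative of RPL7 known as a factor of large-subunit assembly rather than a part of the mature ribosome, was the member that fell. In control liver it was 5.79, 6.26, 5.66 and 6.13 at day 37 and 5.74, 5.45, 5.40 and 5.71 at day 110, and in runt liver 5.84, 6.06, 6.23 and 6.15 against 5.47, 5.84, 5.57 and 5.69. The day 110 values were mostly lower, with overlap in both kinds of fetus. It fell by 0.39 in controls (SE 0.13, 0.765-fold, limma adjusted p = 0.0152) and by 0.43 in runts (SE 0.13, 0.744-fold, adjusted p = 0.00832). The control call was lost without day 37 replicate 2 or 4 or day 110 replicate 3 (without day 37 replicate 2 it was -0.29, adjusted p = 0.0811), with each array scaled to its median (-0.36, adjusted p = 0.0627), and with slide as a block (-0.30, adjusted p = 0.0757). The runt call was kept with slide as a block (-0.51, adjusted p = 0.00477).

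**Figure D2:**
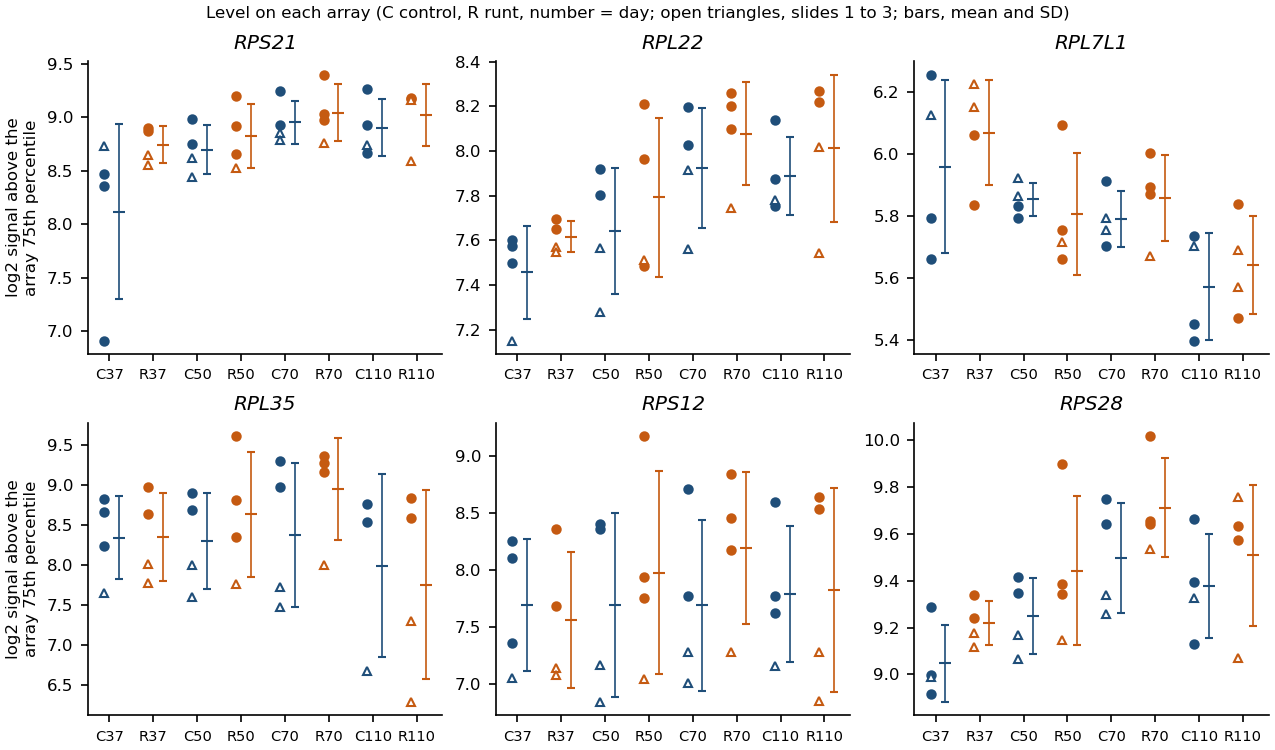
Level on each array (log2 signal above the array's 75th percentile) of 6 members by group; C is control and R is runt, followed by the gestational day. Open triangles are arrays of slides 1 to 3 and filled circles those of slides 4 to 9, and bars are the mean and SD of the group. RPS21 has a single low array in day 37 controls, at 6.91, RPL7L1 is lowest at day 110, and the open triangles of RPL35 and RPS12 lie at the bottom of every group.

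RPL7, the ribosomal partner of RPL7L1, was not called. It measured 8.22 ± 0.06 (SD, n = 4) at day 37 and 8.38 ± 0.14 at day 110 in controls, a difference of 0.15 with a 95% interval of -0.11 to 0.42, and the groups overlapped. RPL26L1, a close copy of RPL26 that the ribosome also accepts, had a control difference of -0.09 (interval -0.36 to 0.19). In runts its values were 3.60, 3.93, 3.86 and 4.03 at day 50 and 4.14, 4.04, 4.08 and 4.20 at day 70. Every day 70 runt lay above every day 50 runt (difference 0.26), as for 13.7% of all features, and it was not called. RPL36AL, a close copy of RPL36A, had a control difference of 0.18 (interval -0.18 to 0.53). RPL26 and RPL36A themselves were not among the members.

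Among the other large-subunit proteins, RPL5 and RPL11 form a particle with the 5S ribosomal RNA. RPL5 measured 8.80 ± 0.22 (SD, n = 4) in day 37 controls and 9.20 ± 0.35 in day 110 controls and was not called (0.40, interval -0.09 to 0.88, limma adjusted p = 0.158), and after quantile normalization it was called (0.54), as in the authors' deposited table (0.42, adjusted p = 0.00135). RPL11 had 0.07 (interval -0.47 to 0.61). RPL23, which like these binds MDM2, had 0.16 (interval -0.41 to 0.74).

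RPLP0 anchors the acidic stalk that recruits elongation factors, and its control difference was -0.12 (interval -0.42 to 0.19). RPL10A lies in the stalk that releases spent transfer RNA, and it had 0.05 (interval -0.19 to 0.29). RPL10, added late in assembly beside the peptidyl transferase centre, had 0.16 (interval -0.23 to 0.55). RPL35, next to the exit tunnel, had the widest interval of all, from -1.57 to 0.87 around -0.35. Its value for day 110 control replicate 3 was missing, as the spot was an outlier on that array, and the fit used the other 3.

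RPL6 had the smallest difference of all members, -0.00 (interval -0.49 to 0.48), but after quantile normalization it was called lower (-0.27, limma adjusted p = 0.0493). Its 4 values ran from 8.24 to 8.84 at day 37 and from 8.17 to 8.99 at day 110. RPL27 had 0.33 (interval -0.02 to 0.68) and RPL29 had 0.25 (interval -0.04 to 0.54). RPL29 was called after quantile normalization (0.31, adjusted p = 0.0331) and with a replicate block (adjusted p = 0.0295). As a set the 15 large-subunit members had a median of 0.15, with 10 above 0, and the 12 small-subunit members a median of 0.08, with 9 above 0.

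In the small subunit, RPS28 lies near the exit of the messenger RNA channel. Its control values were 9.29, 8.91, 8.999 and 8.99 at day 37 and 9.66, 9.39, 9.13 and 9.32 at day 110, and 3 of the 4 later values exceeded all earlier ones. It was not called (0.33, interval -0.01 to 0.67, limma adjusted p = 0.0925), but it was called in the authors' deposited table in control liver (0.37, adjusted p = 0.000806) and in runt liver (0.35, adjusted p = 0.00159). RPS26, also near that exit and linked to Diamond-Blackfan anaemia, had 0.10 (interval -0.13 to 0.32).

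RPS3 guards the entry of the messenger RNA channel, and it had -0.09 (interval -0.41 to 0.23). RPS23, at the decoding centre, had 0.04 (interval -0.37 to 0.44). RPSA, which doubles as a laminin receptor, had 0.16 (interval -0.34 to 0.65). The remaining small-subunit members RPS3A, RPS12, RPS16, RPS18 and RPS20, all structural proteins of that subunit, had differences from -0.17 (RPS20) to 0.28 (RPS18), none called. In runts RPS20 was called lower at day 110 than at day 37 after quantile normalization (-0.65, limma adjusted p = 0.000687). It was also called lower there than at day 70 (-0.41, adjusted p = 0.0436), but neither call was made as reported or in the authors' deposited table.

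Without a block, the 3 steps between sampled days were also without calls. From day 37 to day 50 none of the 27 was called in controls (7.38% of all features) or in runts (15.3%). From day 50 to day 70 none was called in controls (24.5%) or in runts (25.7%), and from day 70 to day 110 none in controls (26.5%) or in runts (24.5%). Counts at an unadjusted limma p under 0.05 were 1, 0 and 1 for the 3 control steps and 1, 1 and 3 for the runt steps. The shares of all features at that threshold are not given here. Treating arrays with the same replicate number, which partly follows the slides, as a block added calls. It gave 1 from day 50 to day 70 in controls, RPL10, higher by 0.26 (adjusted p = 0.0449, 30.3% of all features), and 3 between day 37 and day 110 in runts, RPL22, RPS28 and RPL7L1 (53.8%). In the runt steps, where same-numbered arrays did not deviate together in each pair, it called RPL26L1 lower from day 37 to day 50 (19.7% of all features) and RPL10 and RPL29 higher from day 50 to day 70 (30.1%). From day 70 to day 110 it called 6 runt members, all lower: RPL6, RPL10, RPL11, RPL29, RPL35 and RPSA (28.2%).

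The means traced a shallow peak at day 70 that depended on the scaling. As reported, the day 70 control mean was the highest of the 4 for 22 of 27 members, and the day 70 runt mean for 20. The control median difference was 0.15 from day 50 to day 70, with 25 of 27 above 0, and -0.12 from day 70 to day 110, with 4 above 0; both differences use the same day 70 arrays. After quantile normalization these medians were -0.01 (12 above 0) and 0.05 (17 above 0), and 0.00 (14 above 0) and 0.04 (16 above 0) in the authors' deposited table. With each array scaled to its median the first was 0.34, with 27 above 0, while the median over all features also moved, from -0.05 to 0.14. In runts the medians were 0.21 and -0.20 as reported, and -0.04 and 0.01 after quantile normalization. Quantile normalization and the authors' table both leave the arrays with nearly the same distribution, so they are not separate checks.

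Markers of other cell types also stood high at day 70. The granulocyte level (median over its 7 markers of centred log2 signals) was -1.74 to 0.53 in controls of day 50, 1.18 to 1.89 at day 70 and -0.75 to -0.15 at day 110. From day 50 to day 70, 4 of the 7 granulocyte markers rose in controls (12.5% of all features were called higher) and none was called in runts. From day 70 to day 110, 5 fell in controls (13.6% lower) and 6 in runts (11.9% lower). The hepatocyte level averaged 0.27 in day 70 controls and 0.37 in day 70 runts, above the means of the other days in each kind of fetus. From day 50 to day 70, 2 of 9 hepatocyte markers rose in controls and 2 in runts (13.4% higher), and from day 70 to day 110, 2 fell in controls and 1 in runts. The part of these cell types in the day 70 values was not tested.

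RPS3 in runts showed a gap at the last step, with values of 8.21, 8.07, 8.08 and 8.13 at day 70 and 7.99, 7.94, 7.70 and 7.81 at day 110. The groups did not overlap, as for 12.3% of all features, and RPS3 was not called (-0.26). RPL35 had the largest difference of any member at that step, -1.20 in runts, from 9.36, 9.27, 9.16 and 7.999 to 8.83, 8.58, 6.28 and 7.30. Its groups overlapped and it was not called, but with slide as a block it was (-0.96, SE 0.27, limma adjusted p = 0.0151). Both genes, like RPS12 below, were singled out after their values were seen.

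Ribosomal protein signals varied together between arrays of a group. The ribosomal protein level of an array is taken here as the median over members of the log2 signal centred on each member's mean. Its SD within groups, pooled, was 0.22 as reported, and 0.19 with arrays scaled to their median, 0.05 after quantile normalization and 0.04 in the authors' deposited table. Single arrays stood at the edge for nearly all members. Among the 26 members with complete values, day 50 runt replicate 1 was the highest of its group for 25, day 110 control replicate 1 the highest for 25, and day 110 runt replicate 3 the lowest for 24.

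These differences followed the slides, and also the replicate numbers, which partly follow the slides. In each of the 8 groups, every array of slides 1 to 3 had a lower ribosomal protein level than every array of slides 4 to 9, with differences between the set means of -0.45 to -0.14 (median -0.30). The level also fell in order of replicate number, from 1 to 4, in every group except day 110 runts. In day 70 controls it was 0.30, 0.13, -0.04 and -0.18 in that order. Where replicate 3 was on slides 4 to 9, it lay below replicates 1 and 2. Each group held 1 or 2 arrays of slides 1 to 3, with 6 control and 6 runt arrays in all. At day 37, 50, 70 and 110 in turn, controls held 1, 2, 2 and 1 of them and runts 2, 1, 1 and 2. Runt differences at single days, and the steps from day 37 to 50 and from day 70 to 110, are therefore partly confounded with the slide set. In the authors' deposited table none of the 8 groups had the order by slide set, after quantile normalization 1 had it, and with median scaling 5. The first 2 settings have the limit given above. Other measures were low on the same arrays. The hepatocyte marker level was lower on every array of slides 1 to 3 in 7 of the 8 groups, the share of spots well above background in 6, the 75th percentile intensity in 5 and the granulocyte level in 4. The Kupffer cell level had this order in 0 groups. Whether the slides, the replicate order, the fetuses placed on the slides or these measures account for the lower level was not tested.

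**Figure D3:**
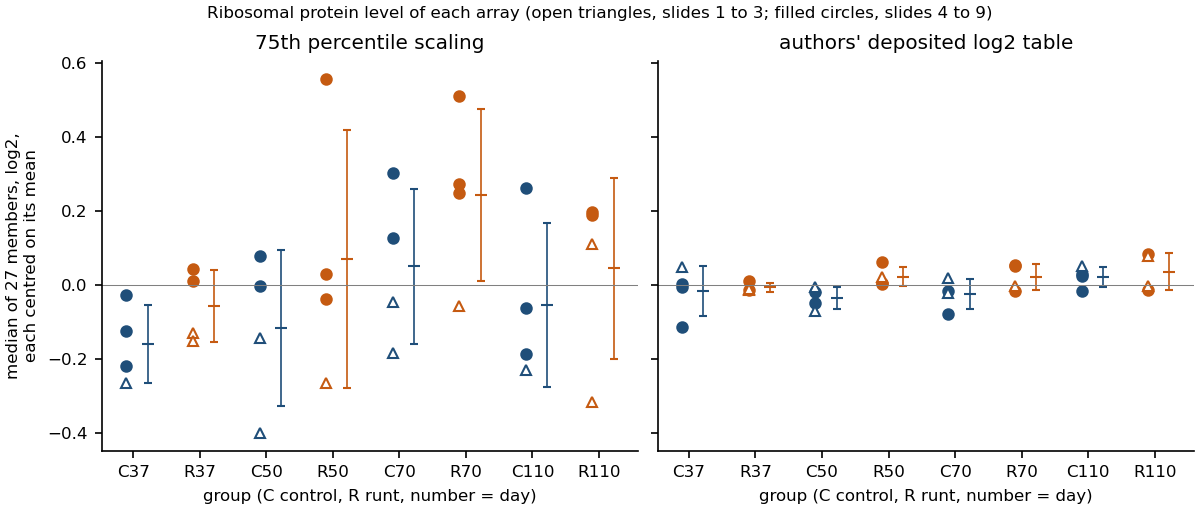
Ribosomal protein level of each array (median over 27 members of the log2 signal centred on each member's mean) by group, under scaling to the 75th percentile (left) and in the authors' deposited log2 table (right); C control, R runt, number the day, bars mean and SD of 4 arrays. On the left the arrays of slides 1 to 3 (open triangles) are the lowest of every group and the pooled SD is 0.22. On the right, where all columns have nearly the same distribution, that order is gone and the SD is 0.04.

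The members did not share this slide difference equally. Slides 1 to 3 minus slides 4 to 9, within groups, averaged -1.33 log2 units for RPL35, -1.13 for RPS12 and -0.64 for RPL23, whereas RPLP0 and RPL26L1 had 0.21 and 0.20. All 3 were also lower on slides 1 to 3 under the other scalings tried. RPL35 had -0.97 in the authors' deposited table and -1.10 after quantile normalization, RPS12 had -0.85 and -0.65, and RPL23 had -0.55 and -0.57. RPS12 is a small-subunit protein with a part in cell competition in flies. Its day 50 control values were 8.40 and 8.35 on slides 4 to 9 and 7.17 and 6.85 on slides 1 to 3, with the sets apart. RPL35 and RPS12 also had the largest SD within groups, 0.83 and 0.73, with a range of 0.13 (RPS26) to 0.41 over the other members.

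**Figure D4:**
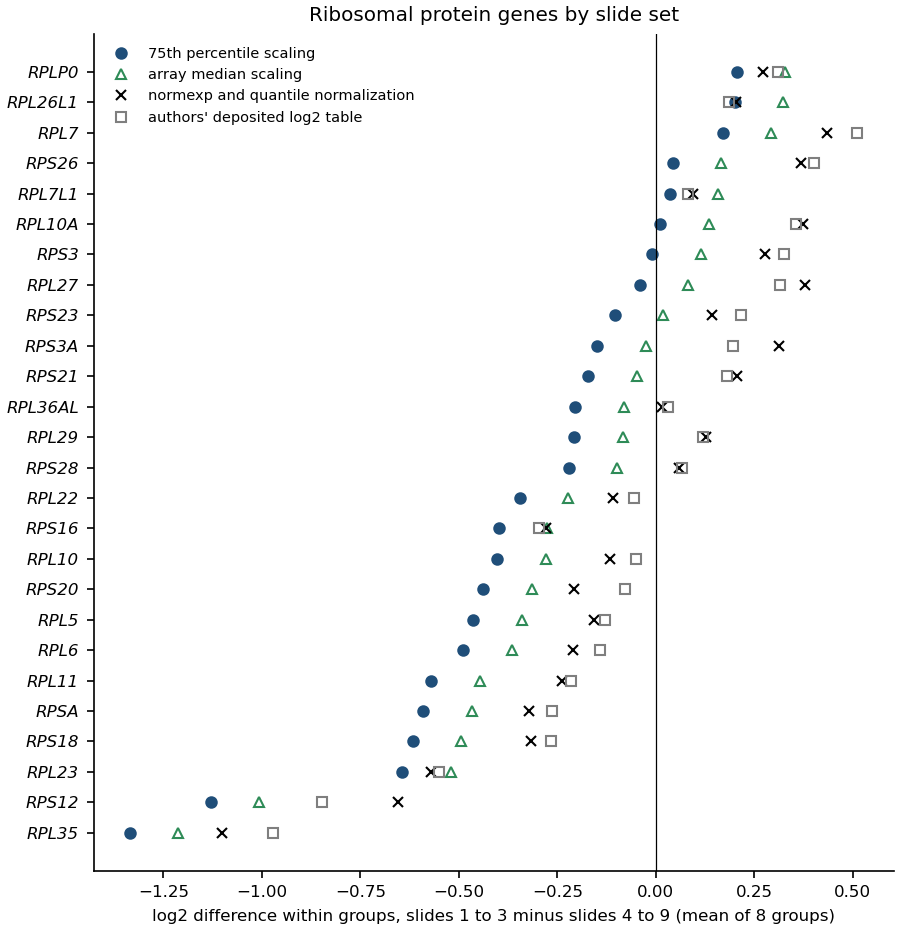
Log2 difference between arrays of slides 1 to 3 and of slides 4 to 9, taken within each group and averaged over the 8 groups, for 26 of the 27 members under 4 scalings. RPL35, RPS12 and RPL23 lie at or below -0.52 in all 4. Most other members that lie below 0 as reported move across or towards 0 when arrays are quantile normalized or in the authors' deposited table. RPL7, RPS26, RPL10A and RPLP0 move further above 0 there, in the authors' table to 0.51, 0.40, 0.36 and 0.31.

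Other probes of the members were tested as well. Of 51 member probes 50 were tested, and 15 members had several. Between day 37 and day 110 in control liver, 3 of the 50 probes were called, the same 3 that stood for their genes, and the median over probes was 0.10. In runts 2 were called, the RPL7L1 probe and another RPL10 probe (0.35, limma adjusted p = 0.0390). For 4 genes the tested probes differed in direction or call in control liver: RPL10A (0.05, 0.05 and -0.11), RPL6 (-0.00, 0.17 and -0.05), RPS20 (-0.17 and 0.13) and RPS21, given above. Processed pseudogenes of ribosomal protein genes are common, and whether a probe also takes up their copies was not tested.

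No ribosomal protein gene passed the test between runts and controls. At day 37, 50, 70 and 110 in turn none of the 27 was called, where 0%, 0.0663%, 0% and 0.0140% of all features were. For the mean over the 4 days none was called (0.248% of all features, 71 of 28673), and the smallest adjusted p was 0.208. An unadjusted limma p under 0.05 was reached by 9 members, and the share of all features at that threshold is not given here. As the members varied together between arrays, the 9 are not separate results. A runt effect that differed between days was called for none of the members (F-test, 0 also at an unadjusted p under 0.05), against 0.00349% of all features. All 27 intervals of the mean difference lay within 2-fold, and 25 within 1.5-fold.

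The small differences nevertheless pointed 1 way as reported, and this too depended on the scaling. The mean runt difference was above 0 for 27 of 27 members, with a median of 0.17 against 0.00 over all features, but the median was 0.02 (19 above 0) after quantile normalization and 0.03 (23 above 0) in the authors' deposited table. With arrays scaled to their median it was 0.19 (27 above 0), with slide as a block 0.14 (27 above 0), and on slides 1 to 3 alone 0.11 (24 above 0). By day the medians were 0.16, 0.19, 0.21 and 0.11, that of day 110 turning to -0.01 after quantile normalization and -0.00 in the authors' deposited table, and 21 members were above 0 on 4 days and the other 6 on 3. Quantile normalization and the authors' table are not separate checks here either, for the reason given above. On each day runts and controls held unequal numbers of arrays of slides 1 to 3. The 75th percentile itself differed by -0.12, -0.08, -0.00 and -0.22 log2 units (runt minus control) at the 4 days. Before scaling, the ribosomal protein level of runts minus controls was -0.02, 0.11, 0.19 and -0.12. The part of the percentile in the runt difference was not tested further.

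RPS3 had the largest mean runt difference as reported, 0.25 (SE 0.08, interval 0.09 to 0.41, limma adjusted p = 0.208). It was 0.15 after quantile normalization and 0.14 in the authors' deposited table, where RPL23 (0.15) and RPS16 (0.15) exceeded it. Its day 37 values were 7.73, 7.64, 7.69 and 7.60 in controls and 7.70, 7.88, 8.07 and 7.81 in runts. At day 110 they were 7.98, 7.52, 7.28 and 7.50 in controls and 7.99, 7.94, 7.70 and 7.81 in runts, and the groups overlapped at both days. RPL7 had 0.18 (SE 0.06, adjusted p = 0.313), but 0.0041 after quantile normalization and 0.03 in the authors' deposited table. RPL10A had 0.16 (SE 0.06, adjusted p = 0.330), and 0.02 under both. RPL7L1 and RPL26L1 had the smallest differences, 0.05 and 0.02. The large-subunit median was 0.16 and the small-subunit median 0.18.

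**Figure D5:**
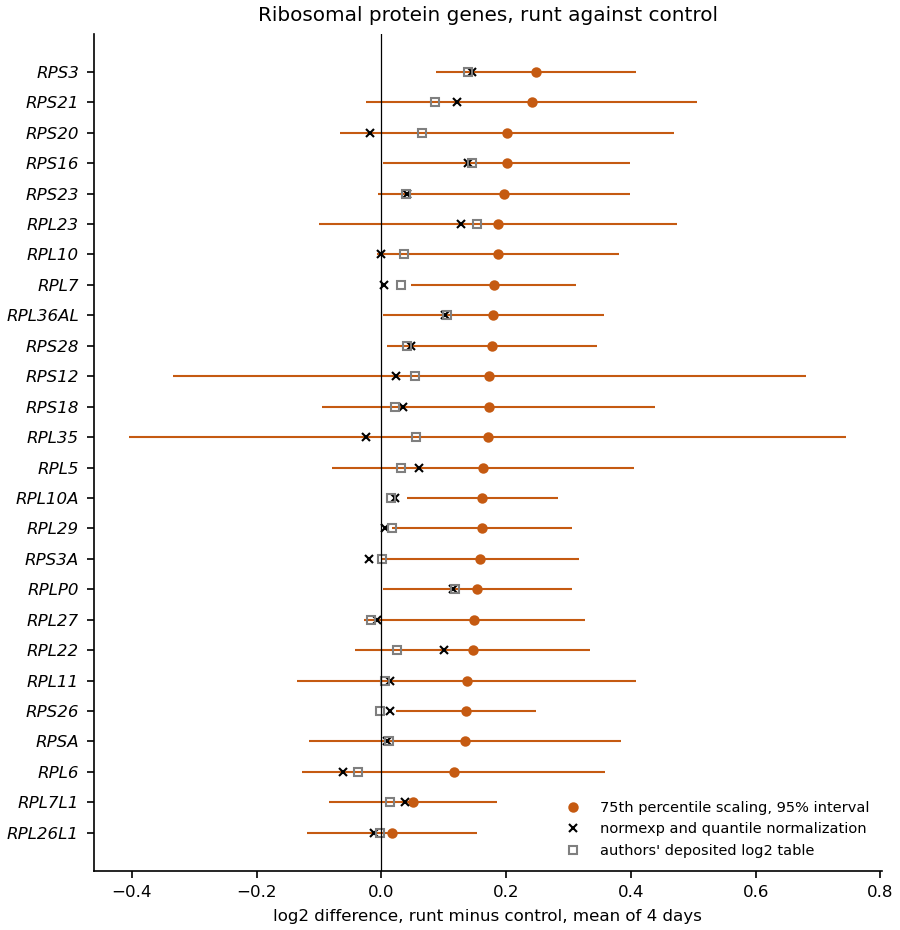
Log2 difference between runt and control liver, averaged over the 4 days, for 26 of the 27 members: filled points with 95% intervals under scaling to the 75th percentile, crosses after quantile normalization and squares in the authors' deposited log2 table. All 26 filled points lie above 0, from 0.02 to 0.25, with none called; under the other 2 settings the points gather near 0, with medians over all 27 members of 0.02 and 0.03.

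Other genes of protein synthesis were taken from gene lists. Of 11 measured translation factors and their partners, 4 fell between day 37 and day 110 in control liver and none rose (median -0.19), where 26.0% of all features were called lower and 27.1% higher, with EIF4A1, the helicase that unwinds messenger RNA leaders, at -0.80 (limma adjusted p = 5.72e-05) and EIF2S2, a subunit that brings the initiator transfer RNA, at -0.73 (adjusted p = 1.99e-05). In runts 3 of the 11 fell and none rose (22.7% of all features lower, 27.3% higher). The elongation factor EEF1A1 and TPT1, whose messages carry the same pyrimidine tract, had 0.35 and 0.29 in controls and were not called.

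Against the same shares of all features, 1 of 2 measured assembly factors fell in both kinds of fetus, NIP7, by 0.78 in controls (limma adjusted p = 0.00067). Of 5 measured genes of growth control 2 fell in controls, ATF4 by 0.78 (adjusted p = 0.000926) and MDM2 by 0.56 (adjusted p = 0.006), and 1 in runts, MDM2. AIMP1, the only measured gene of the transfer RNA synthetase list, rose in runts (0.65, adjusted p = 0.00471) and was not called in controls (0.22, adjusted p = 0.335). The difference between these 2 changes was not tested. None of these genes was called between runts and controls over the 4 days. None of the mitochondrial ribosomal proteins had a named probe.

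Cell type markers changed across the same days, between which 53.1% of all features were called in controls and 50.0% in runts. All 4 erythroid markers fell in both kinds of fetus, and their level (median of centred log2 signals) went from 1.34 to 1.85 over the day 37 controls to -3.84 to -1.50 at day 110, and from 1.02 to 1.65 to -4.25 to -2.52 in runts. All 7 proliferation genes fell too, from 1.09 to 1.33 in day 37 controls to -3.12 to -1.43 at day 110. All 7 Kupffer cell markers rose in both kinds of fetus, 5 of 7 stromal and endothelial markers rose in each, and of 9 lymphocyte markers 6 rose and 1 fell in controls and 7 rose and 1 fell in runts. None of 7 granulocyte markers was called between day 37 and day 110. Of 9 hepatocyte markers 3 rose and 1 fell in each. Between runts and controls 1 hepatocyte marker was called, albumin, lower in runts by the mean of 4 days (-1.53, adjusted p = 0.0223), and no marker of the other lists. The part of cell mixture in the ribosomal protein values was not tested.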

How the data were processed

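Per the labels' protocols, total RNA from single livers was amplified and labelled with Cy3, and each sample was hybridised to 1 array. The deposited scanner files hold processed signal intensity from Agilent Feature Extraction 10.7.3.1, per the file headers. The authors' deposited table holds log2 values made with Partek, per the submitters' processing notes; its centring is not stated, its columns correlated with the scanner values at 0.9927 to 1.0000, its column medians were 5.1479 to 5.1532, and its columns differed by at most 0.0176 at any percentile from 1 to 99.

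The intensity was taken as log2 minus the array's 75th percentile, control and outlier spots were left out, and probes well above background on at least 3 of 4 arrays of a group were kept. Probes were named by transcript accession through the RefSeq table of Sscrofa11.1: 2683 of 43603 probes matched, for 1904 symbols. The array's genome build is not given in the sources used here, so no coordinates are printed, and no sequences were used. A group-means model of 8 groups was fitted to all 32 arrays with limma 3.58.1 in R 4.3.3 (24 residual degrees of freedom) and checked on simulated data. The simulated noise was independent for each feature, so the check does not cover genes that vary together between arrays. Alternatives were normexp (offset 50) with quantile normalization (on median signals, since mean signals were not used here, in place of the planned mean), median scaling, the authors' table, a stricter background filter, mean over probes, slide or replicate number as a block, slides 1 to 3 or 4 to 9, a 2-fold rule and leaving out each array. Omitting 3 paralogues or the member with a missing value was chosen after seeing the data.

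Same-numbered runt and control samples deviated together (correlation over 0.1 in each pair) at day 37 (0.13 to 0.42) and day 110 (0.13 to 0.19), not at each pair of days 50 and 70; between days this held for control day 50 and 70 (0.15 to 0.40) and runt day 37 and 110 (0.10 to 0.19). At day 110, 2 differently numbered pairs correlated more than any same-numbered one: control 1 with runt 2 (0.35) and control 4 with runt 3 (0.30). The other differently numbered pairs of that day were lower, from -0.48 to 0.06. Labels give littermate pairs but do not tie them to replicate numbers. Replicate 4 was on slides 1 to 3 in every group, and replicates 1 and 2 were on slides 4 to 9. Litter and slide set can therefore not be told apart in these correlations or in the replicate block. Members named beyond counts were those called, paralogues with their partners, the smallest changes, and genes whose probes disagreed; other names are given with their role; 1 of the 27 members counts in the totals but is not reported here by name. The members and gene lists were chosen with earlier results of these data known.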

Additional observations from a re-analysis of the deposited data

Results flagged for a closer look

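Of 215 sets of 4 arrays (26 of the members and the ribosomal protein level in 8 groups, complete sets), 10 held 1 value apart from the others by Dixon's criterion, and chance gives about 5% of sets. Day 50 runt replicate 1, the array on its own slide, was high for RPL10A (9.26, next 8.97), RPS23 (10.43, next 9.51) and RPS26 (9.04, next 8.75). Replicate 4 of several groups was apart: it was low for RPL23 in day 50 controls (5.36) and day 70 runts (6.09), for RPS26 in day 50 controls (8.56) and for RPL35 in day 70 runts (7.999), and high for RPL7 in day 110 runts (9.03). In every group replicate 4 was on slides 1 to 3. RPL6 was high in day 37 runt replicate 1 (8.80). RPS21 was low in day 110 runt replicate 3 (8.59, next 9.16).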

How the results depend on the processing

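Percentages in brackets are the shares of all features called under the same setting. They are not given for slide subsets or where arrays or members were left out. Between day 37 and day 110 the 3 members called in control liver became 7 after normexp and quantile normalization (5 higher, 2 lower, 50.5%). They became 5 in the authors' deposited table (52.8%) and 6 with a replicate block (57%). With slide as a block they became 4 (52.9%), gaining RPL5 and RPS18 and losing RPL7L1. The count was 0 on slides 1 to 3, 1 on slides 4 to 9 and 0 under the 2-fold rule (29.3%). It was 1 to 2 when 1 array was left out (1 without day 37 replicate 2 or 4 or day 110 replicate 3). The 1 called in runts became 4 after quantile normalization (48%) and 3 in the authors' deposited table (49.8%). It became 3 with a replicate block (53.8%) and 3 with slide as a block (51.5%). The runt count was 0 on slides 1 to 3, 0 under the 2-fold rule (27.1%) and 0 without the 3 paralogues. It was 1 to 3 when 1 array was left out (3 without day 110 replicate 3, 2 without day 37 replicate 1).

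From day 50 to day 70 the 0 calls in controls became 4 with median scaling (25.5%), 1 with slide as a block (33.5%) and 1 with a replicate block (30.3%). In runts they became 4 with median scaling (28%), 4 with slide as a block (24%) and 2 with a replicate block (30.1%). They also became 1 on slides 4 to 9 and 0 to 2 with 1 array left out (2 without day 50 replicate 1). From day 70 to day 110 the 0 calls became 1 in controls with slide as a block (27.2%) and 0 to 1 with 1 array left out (1 without day 110 replicate 1). In runts they became 2 after quantile normalization (23.1%), 4 with slide as a block (26.8%) and 6 with a replicate block (28.2%). With 1 runt array left out they became 0 to 1 (1 without day 110 replicate 1). From day 37 to day 50 in runts the 0 calls became 1 with median scaling (17.4%) and 1 with a replicate block (19.7%). With 1 array left out they became 0 to 1 (1 without day 37 replicate 1). Apart from sign changes given with the results or smaller than the spread between arrays, runt medians turned at 3 points: -0.0410 from day 50 to day 70 after quantile normalization, 0.0408 from day 70 to day 110 in the authors' deposited table, and -0.0754 from day 37 to day 50 on slides 1 to 3. The replicate block changed no call between runts and controls, and no setting called a member there. The cause of these changes was not tested, apart from slide subsets, which have fewer arrays. Dim probes were no limit, since each member was well above background on all 32 arrays.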
